A study of Mus musculus with 10 samples.

Results

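Endosomal Toll-like receptors (TLRs) and UNC93B1, the membrane protein that escorts them, were followed in 2 kinds of dendritic cell precursor of the mouse spleen. The members were set by a list of names, drawn up with earlier results of these data known, and no measured value enters the rule: the receptor genes Tlr3, Tlr7, Tlr8, Tlr9, Tlr11, Tlr12 and Tlr13, and Unc93b1. They are 8 of the 52550 genes in the deposited expression table, and 7 of them passed the filter on low values, which asked for a log2 RPKM over 0 in 2 or more of the 10 libraries. Tlr8 did not pass it.

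The libraries came from spleens of C57BL/6 mice. They were 2 libraries of pre-cDC2 from CD11c-cre Adam10fl/fl mice (KO), 2 libraries of pre-cDC2 from WT mice, 3 libraries of pre-cDC1 from KO mice and 3 libraries of pre-cDC1 from WT mice. Pre-cDC1 and pre-cDC2 are precursors of the cDC1 and cDC2 lineages of conventional dendritic cells, and the sample titles call them DN and Ly6C. In KO mice, Cre made under the CD11c promoter removes the loxP-flanked part of Adam10, a membrane protease, in cells in which that promoter is active, so the deletion is not limited to one dendritic cell type. The labels do not say whether WT mice carried either allele, and the sources used here give no age, sex or pooling of animals. Nothing in the labels says which libraries came from separate animals, so p-values measure the spread between these libraries, which may be partly technical. The series title concerns the shedding of FLT3L, a growth factor of dendritic cells, by ADAM10.

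Endosomal TLRs are made in the endoplasmic reticulum and reach endosomes in complex with UNC93B1, where proteases trim them and nucleic acids or microbial proteins engage them. Double-stranded RNA engages TLR3, which signals through the adaptor TRIF, while the other endosomal receptors signal through MYD88. In mouse spleen, cDC1 are known for TLR3 and for TLR11 and TLR12, which sense profilin of Toxoplasma gondii, and plasmacytoid dendritic cells are known for TLR7 and TLR9.

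Expression was deposited as log2 RPKM, reads per kilobase of gene length scaled to library size, so levels of different genes can be compared. Whole reads could be solved from these values, and totals were 7862449 to 13177694 reads per library. Adam10 itself had 909 and 742 reads in KO pre-cDC2 and 228 and 1261 reads in WT pre-cDC2. It had 9, 3 and 13 reads in KO pre-cDC1 and 28, 48 and 10 reads in WT pre-cDC1. KO and WT overlapped in both cell types, but a gene-level value covers all exons and does not check the removal of a part of the gene.

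Marker lists separated both cell types as the labels name them. The summed level of 10 cDC1 markers was 331 to 403 RPKM in pre-cDC2 and 1880 to 2320 RPKM in pre-cDC1. That of 11 cDC2 markers was 1270 to 2040 RPKM in pre-cDC2 and 58.2 to 293 RPKM in pre-cDC1. Pre-cDC2 libraries also held transcripts of other cells. The summed level of 10 T cell markers was 968 and 841 RPKM in KO pre-cDC2 and 72.1 and 1250 RPKM in WT pre-cDC2 replicates 2 and 3, against 1.53 to 12.9 RPKM in the 6 pre-cDC1 libraries. Markers of NK cells followed the same split. WT pre-cDC2 replicate 2 thus held far fewer of them than the other 3 libraries of that cell type, and results that rest on pre-cDC2 are given below with and without it where it decides them. WT pre-cDC2 replicate 2 also had the fewest Adam10 reads of the pre-cDC2 libraries, 228 against 742 to 1261. The part of these other transcripts in the Adam10 reads and in the results was not tested. In bulk samples, fewer cells of a type and less RNA per cell cannot be told apart.

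**Figure D1:**
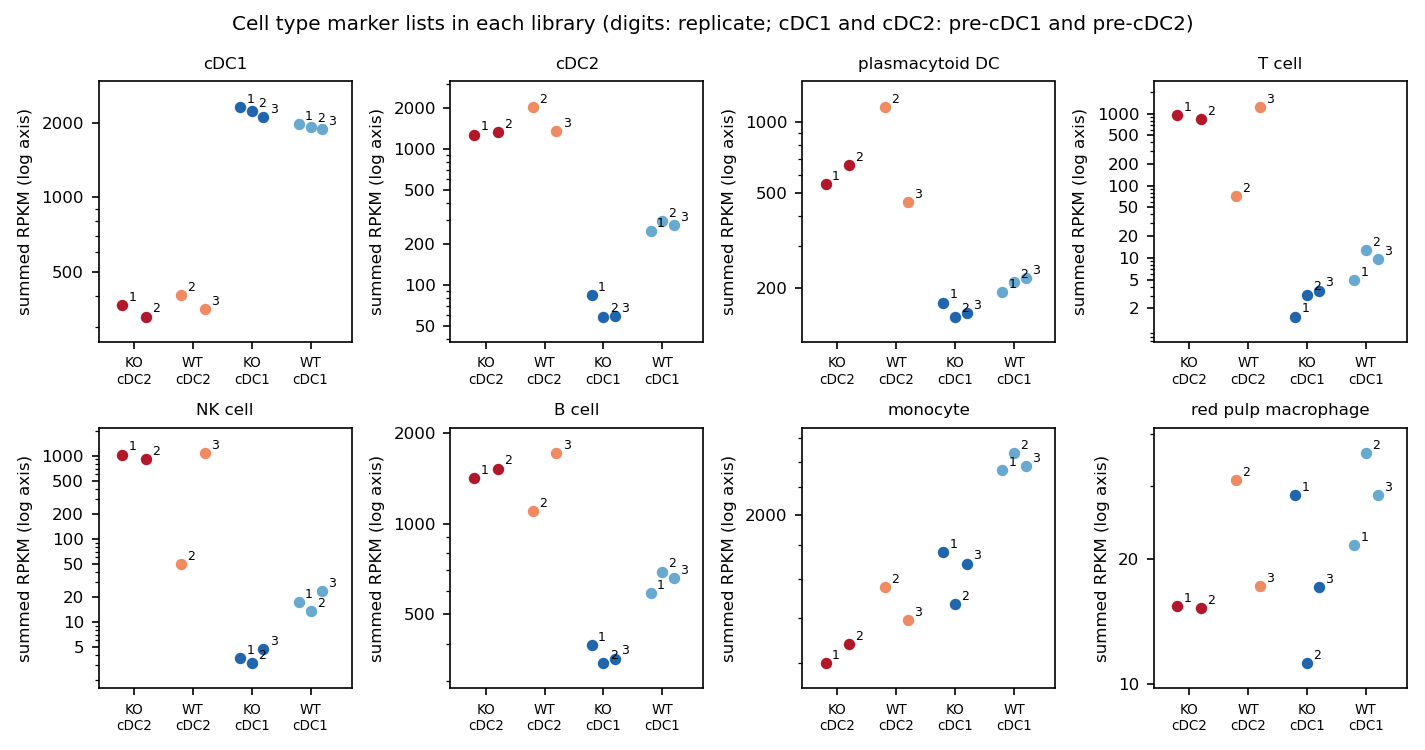
Summed RPKM of 8 cell type marker lists (vertical log axes) in each library, by group from left to right: KO pre-cDC2, WT pre-cDC2, KO pre-cDC1 and WT pre-cDC1. Each point is 1 library with its replicate number, and WT pre-cDC2 replicate 2 lies below the other pre-cDC2 libraries for T cell and NK cell markers and above them for plasmacytoid and cDC2 markers.

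The 8 genes differed widely in level within each group, as the plot of all members by library shows. In pre-cDC1, Unc93b1 was highest, with a log2 RPKM of 9.42 ± 0.11 in KO and 9.42 ± 0.04 in WT (SD, n = 3 each). It was followed by Tlr11, Tlr3, Tlr13, Tlr12, Tlr9, Tlr7 and Tlr8 in both genotypes. The ranges of Tlr11 and Tlr3 overlapped in both genotypes, and those of Tlr7 and Tlr8 overlapped in KO. All other neighbours in this order were separated. In pre-cDC2, Unc93b1 was again highest, at 7.73 ± 0.02 in KO and 8.13 ± 1.06 in WT (SD, n = 2 each), and Tlr12 was the highest receptor. After Tlr12 came Tlr9 and Tlr7 in both genotypes. The last 4 places were Tlr11, Tlr13, Tlr3 and Tlr8 in KO, and Tlr13, Tlr3, Tlr11 and Tlr8 in WT. In KO pre-cDC2 the neighbours Tlr9 and Tlr7, Tlr11 and Tlr13, and Tlr13 and Tlr3 overlapped. In WT pre-cDC2 the ranges overlapped between all neighbours from Tlr12 down to Tlr3.

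**Figure D2:**
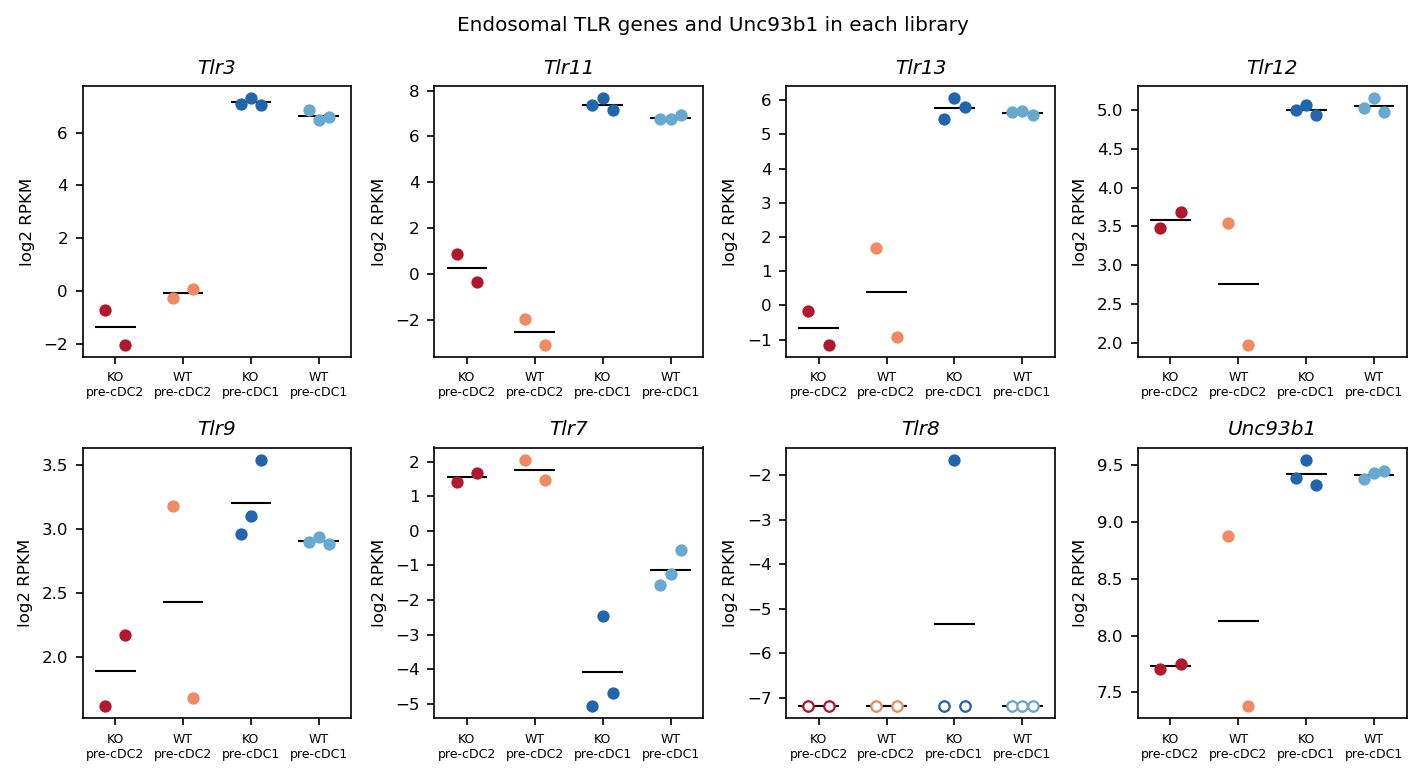
Level of each member in each library as log2 RPKM, one panel per gene, with groups from left to right: KO pre-cDC2, WT pre-cDC2, KO pre-cDC1 and WT pre-cDC1. Points are libraries, open points have 0 reads and lines are group means. Tlr3, Tlr11 and Tlr13 lie higher in all 6 pre-cDC1 libraries than in all 4 pre-cDC2 libraries, while Tlr7 lies lower.

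Summed over the 7 receptor genes, the level was 20.3 and 22.0 RPKM in KO pre-cDC2 and 29.2 and 11.7 RPKM in WT pre-cDC2. It was 382, 469 and 371 RPKM in KO pre-cDC1 and 314, 290 and 306 RPKM in WT pre-cDC1. Both pre-cDC1 groups were therefore above every pre-cDC2 library, and KO pre-cDC1 was above WT pre-cDC1 without overlap. For each unit of Unc93b1, the summed receptor level was 0.0968 and 0.102 in KO pre-cDC2 and 0.0619 and 0.0698 in WT pre-cDC2. The ratio was 0.569, 0.625 and 0.577 in KO pre-cDC1 and 0.470, 0.422 and 0.436 in WT pre-cDC1. Ranges of KO and WT did not overlap in either cell type, and no test was made of these sums.

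The makeup of the sum differed between the cell types. In pre-cDC2, Tlr12 held 55.1% and 58.3% of the summed receptor level in KO and 40.0% and 33.8% in WT. Tlr9 held 15.2% and 20.4% in KO and 31.1% and 27.5% in WT, and Tlr7 held 13.2% and 14.6% in KO and 14.3% and 23.8% in WT. In pre-cDC1, Tlr11 held 37.8% to 43.2% in KO and 34.6% to 39.9% in WT, and Tlr3 held 33.7% to 35.8% in KO and 30.4% to 36.6% in WT. Tlr7 was below 1% of the sum in all 6 pre-cDC1 libraries, the highest share being 0.222% in WT replicate 3.

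**Figure D3:**
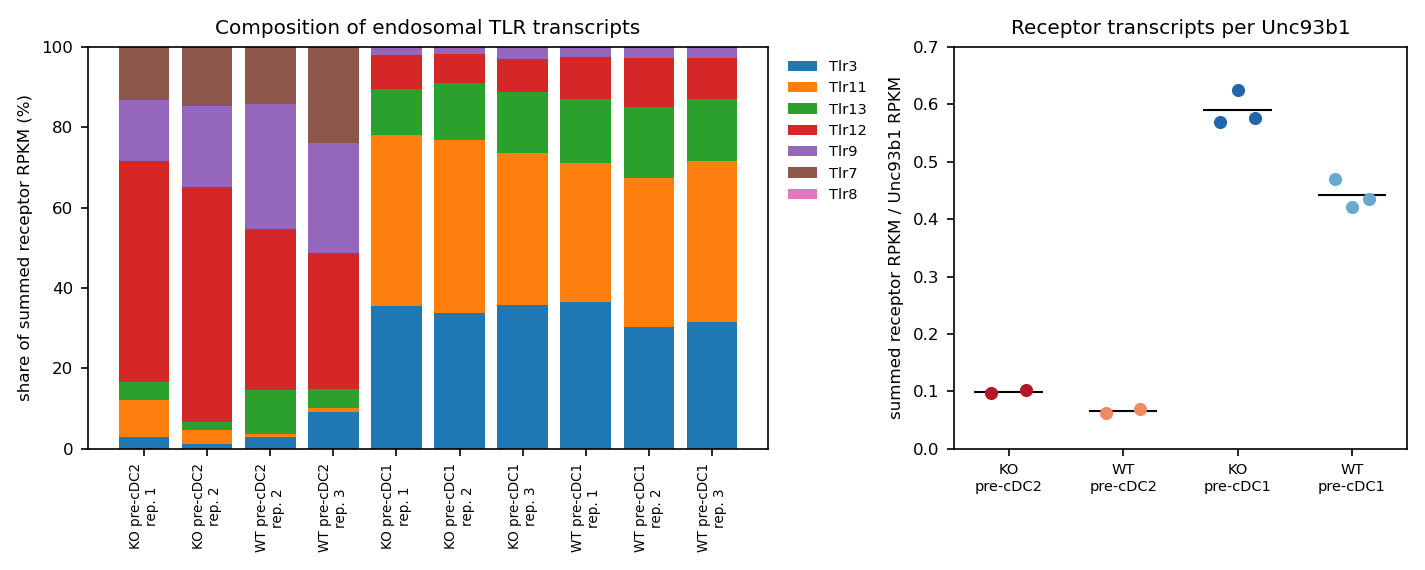
Share of each receptor gene in the summed RPKM of the 7 receptor genes (percent), one bar per library in the order KO pre-cDC2, WT pre-cDC2, KO pre-cDC1 and WT pre-cDC1. Tlr11 and Tlr3 fill most of each pre-cDC1 bar, and Tlr12, Tlr9 and Tlr7 fill most of each pre-cDC2 bar.

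The first comparison set pre-cDC2 against pre-cDC1 within each genotype. Tlr3, Tlr11 and Tlr13 were far lower in pre-cDC2 in both genotypes, Tlr12 and Unc93b1 were lower by smaller amounts, and Tlr7 was higher in KO pre-cDC2. With limma and Benjamini-Hochberg adjustment over 14787 genes, 6 of the 7 tested members were lower and 1 was higher in KO pre-cDC2. With 1 of the 2 KO pre-cDC2 libraries left out, whichever it was, 4 members passed, where 9.59% of all tested genes passed without replicate 1 and 11.2% without replicate 2. Of all tested genes, 20.8% differed in KO, 10.1% being lower and 10.7% higher. In WT, 5 of 7 members were lower and none was higher. Of all tested genes, 11.5% differed in WT, 6.59% being lower and 4.88% higher. Scaling to total reads moved every cell type difference by 0.26 in KO and 0.21 in WT and moved the share of higher genes among those called to 67.6% in KO and 58.8% in WT, where the deposited values gave 51.2% in KO and 42.5% in WT. Centring on library medians gave 40.6% in KO. No member changed sign between the cell types under either scaling. Tlr3, Tlr11 and Tlr13 passed the filter on low values through pre-cDC1 and Tlr7 through pre-cDC2 only, so these had to differ to some degree, and the counts are given as a description.

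Tlr3 encodes the receptor for double-stranded RNA and lies on chromosome 8, 45395665 to 45411080, minus strand (GRCm38). It had 31 and 11 reads in KO pre-cDC2 and 59 and 62 reads in WT pre-cDC2, against 7259, 8081 and 5235 reads in KO pre-cDC1 and 5365, 4114 and 5125 reads in WT pre-cDC1. As log2 RPKM it averaged -1.36 ± 0.93 in KO pre-cDC2 and 7.15 ± 0.14 in KO pre-cDC1. It averaged -0.08 ± 0.26 in WT pre-cDC2 and 6.63 ± 0.19 in WT pre-cDC1. Every pre-cDC2 library was below every pre-cDC1 library. The log2 difference, pre-cDC2 minus pre-cDC1, was -8.51 ± 0.33 in KO (SE; limma adjusted p = 6.9e-07) and -6.72 ± 0.33 in WT (adjusted p = 3.92e-06). Only 29 of the 14787 tested genes had a lower difference in KO, and 70 in WT. An antisense gene, Gm45542, overlaps exons of Tlr3 and had 0 reads in every library. The strand setting of the counts is not given, so this cannot show whether antisense reads entered the Tlr3 values.

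Tlr11, on chromosome 14, 50357914 to 50363663, plus strand, encodes a receptor for protozoan profilin. It had 59 and 22 reads in KO pre-cDC2 and 11 and 4 reads in WT pre-cDC2, against 5489, 6518 and 3482 reads in KO pre-cDC1 and 3196, 3142 and 4070 reads in WT pre-cDC1. The groups of both cell types were apart in either genotype. The log2 difference was -7.12 ± 0.40 in KO (SE; limma adjusted p = 6.36e-06) and -9.35 ± 0.40 in WT (adjusted p = 1.42e-06). In WT, 5 of the 14787 tested genes had a lower difference than Tlr11, and in KO 80.

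Tlr13, on chromosome X, 106143204 to 106160493, plus strand, encodes a receptor for bacterial ribosomal RNA. It had 36 and 16 reads in KO pre-cDC2 and 179 and 24 reads in WT pre-cDC2, against 1834, 2668 and 1731 reads in KO pre-cDC1 and 1831, 1878 and 1982 reads in WT pre-cDC1. The highest pre-cDC2 value, in WT replicate 2, was a log2 RPKM of 1.68, below the lowest pre-cDC1 value of 5.45. The log2 difference was -6.41 ± 0.62 in KO (SE; limma adjusted p = 0.000175) and -5.25 ± 0.62 in WT (adjusted p = 0.00089).

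The log2 difference was also taken with WT replicate 2 as the only pre-cDC2 library, a choice made after seeing the data. It was -6.90 for Tlr3, -8.80 for Tlr11 and -3.96 for Tlr13, values that rest on 1 library and are given with no test.

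Tlr12, which forms a profilin receptor with TLR11, lies on chromosome 4, 128615443 to 128618619, minus strand. It was detected well in both cell types, with 349 and 355 reads in KO pre-cDC2 and 510 and 139 reads in WT pre-cDC2. Pre-cDC1 had 1047, 1038 and 732 reads in KO and 934, 1009 and 1013 reads in WT. Log2 RPKM was 1.98 to 3.68 over the 4 pre-cDC2 libraries and 4.93 to 5.15 over the 6 pre-cDC1 libraries, so the groups did not overlap, but the gap was small beside that of its partner Tlr11. The log2 difference was -1.41 ± 0.36 in KO (SE; limma adjusted p = 0.0224) and -2.29 ± 0.36 in WT (adjusted p = 0.00413). The call was lost in 8 of 22 alternative fits in KO and in 3 of 23 in WT.

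Unc93b1, on chromosome 19, 3935186 to 3949340, plus strand, was abundant everywhere. It had 5850 and 5328 reads in KO pre-cDC2 and 18404 and 5277 reads in WT pre-cDC2, against 19636, 20950 and 13850 reads in KO pre-cDC1 and 17035, 17512 and 20286 reads in WT pre-cDC1. WT pre-cDC2 replicate 2, at a log2 RPKM of 8.88, came closest to the pre-cDC1 range of 9.33 to 9.55, while the other 3 pre-cDC2 libraries were at 7.38 to 7.75. The log2 difference was -1.70 ± 0.35 in KO (SE; limma adjusted p = 0.00865) and -1.29 ± 0.35 in WT (adjusted p = 0.0441). The size of the WT difference moved with that library: without it the difference was -2.04, and without WT replicate 3 it was -0.54. Each of these 2 values rests on 1 WT pre-cDC2 library and is given with no test. The WT difference missed the threshold in 15 of 23 alternative fits, with adjusted p-values of 0.0637 to 0.212, and the KO difference in 4 of 22, with 0.0601 to 0.111.

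Tlr7 encodes a receptor for single-stranded RNA and lies on chromosome X, 167304929 to 167330558, minus strand. It ran the other way, with 107 and 114 reads in KO pre-cDC2 and 233 and 126 reads in WT pre-cDC2, against 1, 7 and 1 reads in KO pre-cDC1 and 12, 15 and 28 reads in WT pre-cDC1. Every pre-cDC2 library was above every pre-cDC1 library. The log2 difference was 5.63 ± 0.90 in KO (SE; limma adjusted p = 0.00246) and 2.90 ± 0.90 in WT (adjusted p = 0.0728), which missed the threshold of 0.05. From summed reads scaled to library size, the ratio of pre-cDC2 to pre-cDC1 was 36.6 in KO (95% interval 19 to 81.2) and 7.38 in WT (5.54 to 9.99). These intervals are exact for independent reads and cover counting error only. Reads came from PCR without molecular identifiers, so the intervals may be too narrow.

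Tlr9, the receptor for unmethylated CpG DNA, lies on chromosome 9, 106222598 to 106226883, plus strand, and differed least between the cell types. It had 105 and 136 reads in KO pre-cDC2 and 433 and 124 reads in WT pre-cDC2, against 279, 292 and 306 reads in KO pre-cDC1 and 232, 239 and 261 reads in WT pre-cDC1. In KO the cell types did not overlap, and the log2 difference was -1.31 ± 0.40 (SE; limma adjusted p = 0.048), a call lost in 14 of 22 alternative fits. In WT the cell types overlapped, since replicate 2 of pre-cDC2 lay above all pre-cDC1 libraries and replicate 3 below them, and the difference was -0.48 ± 0.40 (95% interval -1.38 to 0.43; limma adjusted p = 0.52). Without WT pre-cDC2 replicate 2 it was -1.22, and without replicate 3 it was 0.27, values that rest on 1 WT pre-cDC2 library and carry no test.

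Tlr8, an RNA receptor next to Tlr7 on chromosome X, 167242696 to 167264329, minus strand, had 11 reads in KO pre-cDC1 replicate 2 and 0 reads in each of the other 9 libraries. A count of 0 allows up to 3 reads, or 0.0609 to 0.11 RPKM in these libraries, and no difference was detectable at this depth.

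Most plasmacytoid dendritic cell markers moved with Tlr7 between the cell types. The summed level of 12 such markers was 546 and 658 RPKM in KO pre-cDC2 and 1160 and 458 RPKM in WT pre-cDC2, against 151 to 173 RPKM in KO pre-cDC1 and 191 to 219 RPKM in WT pre-cDC1. Of the 12 markers, 10 were higher in pre-cDC2 without overlap in KO and in WT. Irf7 was lower in KO pre-cDC2 and overlapped in WT, and Ccr9 overlapped in both genotypes. Among the 10, Siglech had 2470 and 3310 reads in KO pre-cDC2 and 10597 and 2948 reads in WT pre-cDC2, against 97 to 158 reads in KO pre-cDC1 and 247 to 483 reads in WT pre-cDC1. Klk1 had 17 to 35 reads in the 4 pre-cDC2 libraries and 0 in all pre-cDC1 libraries. The pre-cDC2 library with the highest marker sum, WT replicate 2, was also the one with the most Tlr7 and Tlr9. That library had the highest cDC2 marker sum as well, at 2040 RPKM against 1270 to 1350 RPKM in the other pre-cDC2 libraries. Markers of other cell types also moved with Tlr7 between the cell types. All 10 T cell markers were higher in pre-cDC2 without overlap in both genotypes, as were 10 of 11 cDC2 markers in KO and 9 of 11 in WT. Immunoglobulin transcripts made up most of the B cell marker sum of 1100 to 1710 RPKM in pre-cDC2, against a sum of 345 to 693 RPKM in pre-cDC1. Of 10 B cell markers, 4 were higher in KO pre-cDC2 without overlap, 1 was lower and 5 overlapped. In WT, 2 were higher, 1 was lower and 7 overlapped. The part of plasmacytoid or B cell transcripts in the levels of Tlr7 and Tlr9 was not tested.

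Across all tested genes, groups of the cell types did not overlap for 23.1% of genes that were lower and 28.6% that were higher in KO pre-cDC2, and for 18.5% that were lower and 20.2% that were higher in WT pre-cDC2. Of the 7 tested members, 6 were lower and 1 was higher without overlap in KO, and 5 were lower and 1 was higher in WT.

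**Figure D4:**
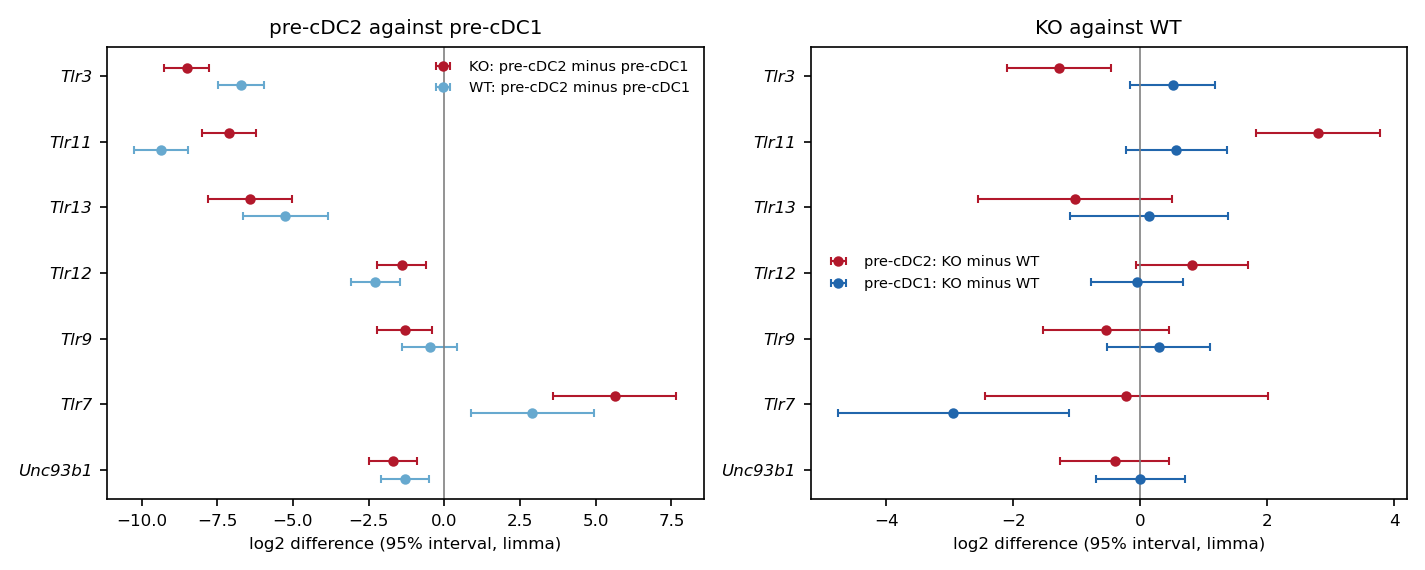
Log2 differences (horizontal axes) of the 7 tested members with 95% intervals from limma, for pre-cDC2 minus pre-cDC1 in KO and WT (left) and KO minus WT in pre-cDC2 and pre-cDC1 (right). Differences between the cell types reach -9.35 for Tlr11 in WT, while differences between the genotypes lie between -2.94 for Tlr7 in pre-cDC1 and 2.80 for Tlr11 in pre-cDC2.

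The bases upstream of the members that moved together between the cell types, Tlr11, Tlr3 and Tlr13, are shown beside those of Tlr9, which moved least. RefSeq promoter entries of GRCm38.p6 were found for 6 of the 8 members, and each window holds the 250 bases before the RefSeq start, 5′ to 3′ on the gene's strand. The 4 motifs searched on both strands were GAAA and GAAA with any 2 bases between, a form of the interferon-stimulated response element (ISRE) bound by IRF proteins, GGAA and GAAA with any 2 bases between, a composite ETS and IRF element, GAGGAAGT, bound by PU.1, and TGANTCA, bound by AP-1. They were chosen after the sequences had been seen, and the ISRE and composite forms can overlap. Capitals mark matches. Tlr11 is chr14:50357664-50357913 (plus strand), Tlr3 is chr8:45410381-45410630 (minus strand), Tlr13 is chrX:106143025-106143274 (plus strand) and Tlr9 is chr9:106222348-106222597 (plus strand).
Tlr11: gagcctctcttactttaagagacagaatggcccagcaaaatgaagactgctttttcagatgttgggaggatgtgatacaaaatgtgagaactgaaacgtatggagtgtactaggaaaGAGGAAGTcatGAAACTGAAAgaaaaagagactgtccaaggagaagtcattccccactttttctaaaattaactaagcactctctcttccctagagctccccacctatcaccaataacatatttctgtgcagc
Tlr3: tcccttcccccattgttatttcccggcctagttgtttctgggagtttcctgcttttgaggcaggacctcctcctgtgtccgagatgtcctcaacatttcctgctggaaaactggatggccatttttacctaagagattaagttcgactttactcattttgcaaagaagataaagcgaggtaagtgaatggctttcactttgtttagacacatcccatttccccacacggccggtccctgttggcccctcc
Tlr13: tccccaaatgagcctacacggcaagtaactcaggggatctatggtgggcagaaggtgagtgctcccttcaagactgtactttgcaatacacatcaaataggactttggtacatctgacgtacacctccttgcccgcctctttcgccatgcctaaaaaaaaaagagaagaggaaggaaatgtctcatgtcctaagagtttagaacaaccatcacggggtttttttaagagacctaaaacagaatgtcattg
Tlr9: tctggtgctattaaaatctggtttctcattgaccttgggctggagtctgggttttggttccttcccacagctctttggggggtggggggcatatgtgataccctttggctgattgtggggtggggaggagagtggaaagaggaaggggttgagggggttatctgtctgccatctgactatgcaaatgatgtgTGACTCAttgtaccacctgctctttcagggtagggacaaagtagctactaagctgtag

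Tlr11 held a PU.1 match at bases -133 to -126 and an ISRE match at -122 to -113, counted from the start. Tlr9 held an AP-1 match at -58 to -52. None of the 4 motifs was found in the windows of Tlr3, Tlr13, Tlr12 or Tlr8. Among 32851 windows of the same length, 2.98% held the ISRE form, 2.3% the composite form, 2.44% the PU.1 motif and 6.75% the AP-1 motif. A match describes letters and not binding. The RefSeq starts of Tlr3 and Tlr13 used here lie inside the genes' annotated spans, so that all 250 bases of the Tlr3 window and 71 of the Tlr13 window are within the gene.

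The second comparison set KO against WT within each cell type, the question of the Adam10 deletion. In pre-cDC1, 0 of the 7 tested members differed by limma at an adjusted p of 0.05, where 0.0271% of all tested genes did (4 of 14787). At an unadjusted p under 0.05 there was 1 member, Tlr7, and limma with voom weights on the recovered reads called 0 members, 3 having an unadjusted p under 0.05. Between KO and WT the ranges did not overlap for Tlr3, Tlr9 and Tlr11, which were higher in KO, and for Tlr7, which was lower, where 7.88% of all tested genes were higher and 9.27% lower without overlap.

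Tlr3 in pre-cDC1 had a log2 RPKM of 7.08, 7.30 and 7.05 in KO and 6.84, 6.46 and 6.60 in WT. The KO minus WT difference was 0.51 ± 0.30 (SE; limma adjusted p = 0.672). Tlr11 had 7.35, 7.66 and 7.13 in KO and 6.77, 6.74 and 6.93 in WT, a difference of 0.57 ± 0.35 (adjusted p = 0.705). For both genes each KO library was above each WT library, and neither difference passed after adjustment. The limma fit shared its estimate of the spread over all 4 groups, pre-cDC2 included. The SD of Tlr3 was 0.14 in KO and 0.19 in WT pre-cDC1, against 0.93 in KO and 0.26 in WT pre-cDC2. That of Tlr11 was 0.27 in KO and 0.10 in WT pre-cDC1, against 0.88 in KO and 0.78 in WT pre-cDC2. Xcr1, the chemokine receptor that marks cDC1, also had each KO library above each WT library, at 8.30, 8.30 and 8.25 in KO and 7.89, 7.68 and 7.58 in WT. Of the 10 cDC1 markers, 6 were higher in KO pre-cDC1 without overlap and 4 overlapped. The cDC1 marker sum was 2100 to 2320 RPKM in KO pre-cDC1 and 1880 to 1980 RPKM in WT pre-cDC1, and its part in the levels of Tlr3 and Tlr11 was not tested.

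Tlr7 was lower in KO pre-cDC1, with 9 reads over 3 libraries against 55 reads over 3 WT libraries. The ratio of reads scaled to library size was 0.166 (exact 95% interval 0.0722 to 0.339, counting error only). The limma difference was -2.94 ± 0.81 (SE; adjusted p = 0.255), and with 1 RPKM added before the log2, which weighs down such low levels, it was -0.44 (adjusted p = 0.645). Marker sums of several other cell types moved the same way: the plasmacytoid sum was 151 to 173 RPKM in KO and 191 to 219 RPKM in WT, the cDC2 sum 58.2 to 83.8 RPKM in KO and 247 to 293 RPKM in WT, and the monocyte sum 1470 to 1760 RPKM in KO and 2330 to 2470 RPKM in WT. Single markers did not all follow: 5 of 12 plasmacytoid markers were lower in KO without overlap and 7 overlapped. Of 10 monocyte markers 6 were lower, Ccr2 was higher and 3 overlapped. Of 11 cDC2 markers 8 were lower and 3 overlapped, and of 9 NK cell markers 6 were lower and 3 overlapped. Of 10 T cell markers 3 were lower and 7 overlapped, and of 10 B cell markers 5 were lower and 5 overlapped. The erythroid sum went the other way, at 39.0 to 75.6 RPKM in KO and 14.9 to 23.4 RPKM in WT. Their part in the Tlr7 reads was not tested.

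Unc93b1 in pre-cDC1 had a log2 RPKM of 9.39, 9.55 and 9.33 in KO and 9.38, 9.43 and 9.45 in WT. The groups overlapped, and the difference was 0.00 ± 0.31 (95% interval -0.70 to 0.71; limma adjusted p = 1). Tlr9 had 2.96, 3.10 and 3.54 in KO and 2.90, 2.94 and 2.88 in WT, a difference of 0.29 ± 0.36 (adjusted p = 0.887). Tlr12 differed by -0.06 ± 0.32 and Tlr13 by 0.14 ± 0.55, with KO and WT overlapping.

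In pre-cDC2, 0 of the 7 tested members differed between KO and WT by limma at an adjusted p of 0.05, where 0.0676% of all tested genes did (10 of 14787). At an unadjusted p under 0.05 there were 2 members, Tlr3 and Tlr11, and voom on the recovered reads called 0 members, with 1 at an unadjusted p under 0.05. Without WT replicate 2 there were 2 members past the adjusted threshold, and without WT replicate 3 there were 3, and in the same fits 0.325% and 7.09% of all tested genes passed. Ranges did not overlap for Tlr11, which was higher in KO, and Tlr3, which was lower, where 15.6% of all tested genes were higher and 14.6% lower without overlap.

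Tlr11 in pre-cDC2 had a log2 RPKM of 0.88 and -0.36 in KO and -1.99 and -3.09 in WT. Over the group that was 81 reads in KO and 15 reads in WT, a ratio of 7.24 after scaling to library size (exact 95% interval 4.14 to 13.5, counting error only). The limma difference was 2.80 ± 0.43 (SE; adjusted p = 0.0828). Without WT replicate 2 it was 3.35 and without WT replicate 3 it was 2.25, each with a lone WT library assumed to vary like the other groups. With 1 RPKM added before the log2 it was 0.93 (adjusted p = 0.493). Slc11a1, a metal transporter of phagosomes whose pattern over the 10 libraries was nearest to that of Tlr11, had 18 and 10 reads in KO pre-cDC2 and 2 and 2 reads in WT pre-cDC2. Genes picked for a like profile are a description and no test of it. Treml4, the second nearest, had 14 and 8 reads in KO pre-cDC2 and 3 and 3 reads in WT pre-cDC2. Of the 10 cDC1 markers, KO and WT pre-cDC2 overlapped for 8, Itgae was higher in KO without overlap and Cadm1 lower, and the part of cDC1 transcripts in the Tlr11 reads was not tested.

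Tlr3 in pre-cDC2 had a log2 RPKM of -0.71 and -2.02 in KO and -0.27 and 0.10 in WT, a difference of -1.28 ± 0.37 (SE; limma adjusted p = 0.471). KO pre-cDC2 thus lay below WT pre-cDC2 for Tlr3 and above it for Tlr11, neither passing after adjustment. The ratio of Tlr3 to Tlr11 in RPKM was 0.332 and 0.317 in KO pre-cDC2 and 3.29 and 9.16 in WT pre-cDC2, against 0.78 to 0.945 in KO pre-cDC1 and 0.792 to 1.06 in WT pre-cDC1. This ratio rests on 4 to 62 reads per gene and library in pre-cDC2.

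For the other members in pre-cDC2, KO and WT overlapped. Unc93b1 had a log2 RPKM of 7.71 and 7.75 in KO and 8.88 and 7.38 in WT, and the difference was -0.40 ± 0.38 (SE; limma adjusted p = 0.865). WT replicates 2 and 3 lay on both sides of KO. Without replicate 2 the Unc93b1 difference was 0.35, and without replicate 3 it was -1.15. Tlr13 showed the same split, at -1.03 ± 0.68 with both libraries, 0.26 without replicate 2 and -2.32 without replicate 3. Tlr12 differed by 0.82 ± 0.39, and by 1.60 without replicate 2. Fits without 1 of these replicates hold a lone WT pre-cDC2 library, and their differences are given with no test. Tlr9 differed by -0.54 ± 0.44 and Tlr7 by -0.22 ± 0.99.

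Whether KO differed from WT by another amount in pre-cDC2 than in pre-cDC1 was tested as an interaction in limma. It was called for 0 of the 7 tested members and for 0.0203% of all tested genes (3 of 14787). At an unadjusted p under 0.05 there were 2 members, Tlr11 at 2.23 ± 0.56 (SE; limma adjusted p = 0.757) and Tlr3 at -1.79 ± 0.47 (adjusted p = 0.758). With voom the count was 0 members, and 3 at an unadjusted p under 0.05. Without WT pre-cDC2 replicate 2 it was 1 member, Tlr12, where 0.216% of all tested genes passed, and without replicate 3 it was 2, Tlr13 and Unc93b1, where 3.35% passed.

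The other genes of the pathway were taken from lists by role, and for each list the count past the limma threshold stands beside the median difference. In transport and processing, 17 of 19 genes were tested. Pre-cDC2 against pre-cDC1 gave 3 higher and 3 lower in KO and 3 higher and 3 lower in WT, with a median log2 difference of -0.02 in KO and -0.17 in WT, beside 0.09 in KO and 0.06 in WT over all tested genes. The counts of this list and of the next 3 stand beside 20.8% of all tested genes called in KO and 11.5% in WT. Rab7b, a small GTPase of late endosomes known to act on TLR9 and TLR4 traffic, was lower, with a log2 difference of -7.26 in KO and -7.80 in WT. The chaperones of TLR folding were lower by less, Hsp90b1 (gp96) at -0.94 in KO and -0.65 in WT and its partner Cnpy3 at -1.11 in KO and -0.89 in WT. The endosomal proteases Lgmn and Ctsl, which cut TLRs, were higher, Lgmn at 2.48 in KO and 1.46 in WT and Ctsl at 2.29 in KO and 2.52 in WT. With 1 pre-cDC2 library left out, calls of Cnpy3 and Ctsl were lost in both genotypes and those of Hsp90b1 and Lgmn in WT. Cnpy3 in WT was -1.34 without replicate 2 and -0.44 without replicate 3, and Lgmn in WT was 0.85 without replicate 2 (limma adjusted p = 0.0764). Lamp5, known for moving TLR9 in human plasmacytoid cells, had 0 reads in every library.

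Of the genes that handle nucleic acids in endosomes, all 15 were tested. In KO, 5 were higher and 4 lower, with a median of 0.30, and in WT 6 were higher and 3 lower, with a median of 0.77. Dnase1l3, a secreted DNase, was lower, at -7.53 in KO and -7.16 in WT. The exonucleases of endolysosomes ran opposite ways: Pld4 was lower, at -2.45 in KO and -2.29 in WT, and Pld3 was higher, at 4.87 in KO and 4.13 in WT. Slc15a4, a transporter needed for TLR7 and TLR9 signals in mouse plasmacytoid cells, was higher, at 1.36 in KO and 1.08 in WT, as was the nucleoside transporter Slc29a3, at 1.29 in KO and 1.46 in WT. Pld3 had 1454 and 1398 reads in KO pre-cDC2 and 270 and 2207 reads in WT pre-cDC2, and its WT difference was 5.80 without replicate 2 and 2.46 without replicate 3 (limma adjusted p = 0.0879). The Pld4 difference in WT was -1.40 without replicate 3. Calls of Slc29a3 in KO and of Slc15a4 in both genotypes were lost with 1 pre-cDC2 library left out, and Slc15a4 in WT was 0.56 without replicate 2 and Slc29a3 0.97.

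Of 28 adaptors and signalling genes, 27 were tested. In KO, 4 were higher and 5 lower, with a median of 0.13, and in WT 1 was higher and 4 lower, with a median of 0.01. Myd88, which encodes the adaptor of all the endosomal receptors but TLR3, differed by -0.22 in KO and 0.05 in WT and passed in neither. Ticam1, which encodes TRIF, differed by -1.27 in KO (limma adjusted p = 0.00666) and by -0.86 in WT (adjusted p = 0.0566). The transcription factors Irf8 and Irf5 were lower, Irf8 at -2.27 in KO and -1.86 in WT and Irf5 at -2.13 in KO and -1.86 in WT. Irf8 is also a member of the cDC1 marker list. Tirap, a bridging adaptor, was lower, at -1.97 in KO and -1.34 in WT. Ticam2 and Tnfaip3 were among the 4 genes higher in KO, Ticam2 at 2.65 and Tnfaip3 at 2.46. In WT both missed the threshold, Ticam2 at 1.25 (limma adjusted p = 0.0944) and Tnfaip3 at 1.42 (adjusted p = 0.051). Without WT replicate 3 the WT difference was -1.22 for Irf8 and -1.07 for Irf5, both past the threshold, and the Tirap call was lost (limma adjusted p = 0.0644). Ticam1 in KO missed the threshold without replicate 1, and in WT it was -1.26 without replicate 2.

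Of 16 output genes known from activated dendritic cells, 10 were tested. In KO, 3 were higher and 3 lower, with a median of 0.10, and in WT 2 were higher and 3 lower, with a median of -0.05. Il12b, the shared subunit of IL-12 and IL-23, had 0 reads in all pre-cDC2 libraries, against 9, 31 and 23 reads in KO pre-cDC1 and 41, 23 and 29 reads in WT pre-cDC1. Cxcl9 was lower, at -6.53 in KO and -5.22 in WT, as was Il1b, at -2.30 in KO and -2.59 in WT. Ccl3 was higher, at 2.31 in KO and 0.85 in WT, as was Ccl4, at 2.18 in KO and 1.29 in WT. Ccl5 had the largest difference of the list in KO, at 8.85 (limma adjusted p = 0.00108). In WT it was 4.01 and missed the threshold (limma adjusted p = 0.066). The WT difference of Ccl5 was 6.49 without replicate 2, the library with few T cell and NK cell markers. Without replicate 3 it was 1.53, and each value rests on 1 WT pre-cDC2 library. The chemokines Ccl3 and Ccl4 are also made by NK cells and T cells, whose markers were higher in pre-cDC2. The part of these cells in the levels of Ccl3, Ccl4 and Ccl5 was not tested. Without WT replicate 3 Ccl3 in WT missed the threshold (limma adjusted p = 0.183) and Il1b in WT was -1.63, and without KO replicate 1 Il1b in KO missed it (adjusted p = 0.0658).

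Between KO and WT, none of these 4 lists had a member past the threshold in pre-cDC1. In pre-cDC2 Slc11a1 was the one gene that passed, at 2.98 ± 0.37 (SE; limma adjusted p = 0.0283), from the few reads given above. Slc11a1 passed the filter on low values through pre-cDC1 only. The lists were drawn up with earlier results of these data known, so its call is given as a description. In pre-cDC1 the median KO minus WT difference was -0.13 for transport and processing, -0.12 for nucleic acid handling, -0.05 for adaptors and signalling and -0.75 for outputs, beside -0.004 over all tested genes. In pre-cDC2 the median was -0.07 for transport and processing, -0.30 for nucleic acid handling, -0.10 for adaptors and signalling and 0.02 for outputs, beside 0.005 over all tested genes.

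**Figure D5:**
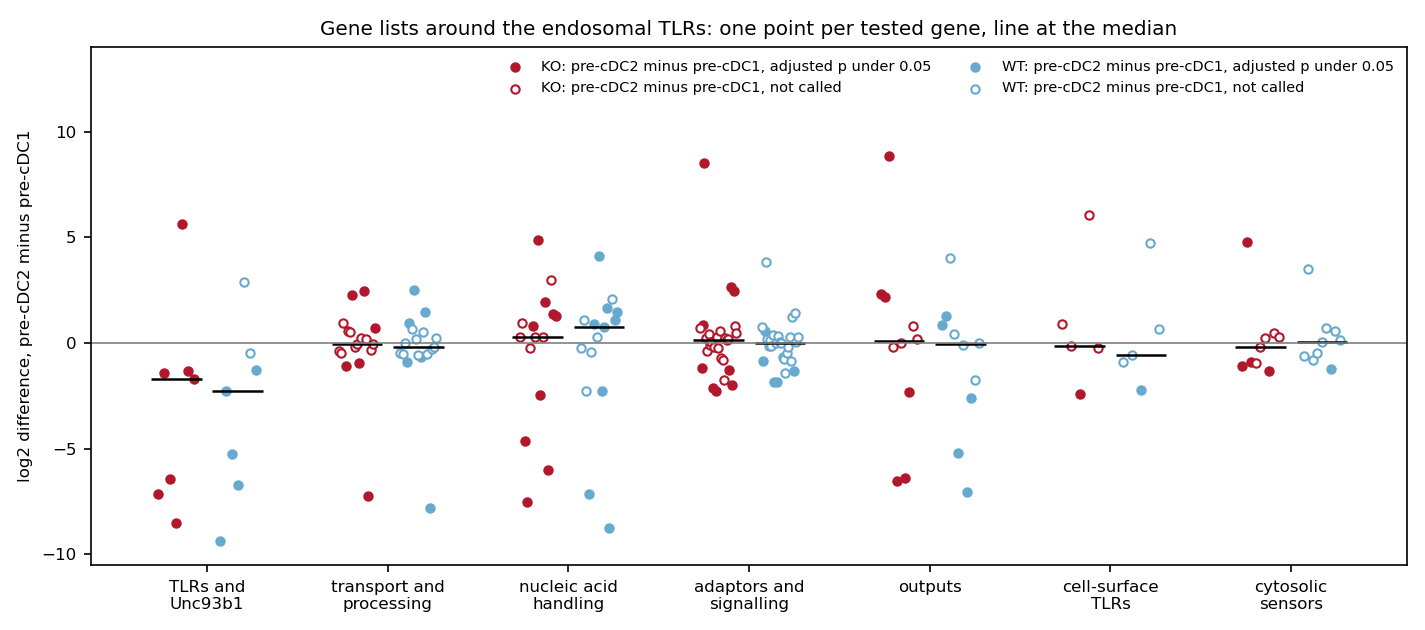
Log2 differences (vertical axis) of the members and of single genes in 6 pathway lists (horizontal axis), pre-cDC2 minus pre-cDC1 in KO and in WT, with filled points past the limma threshold and lines at list medians. Rab7b lies lowest among transport genes and Dnase1l3 and Slc11a1 lowest among nucleic acid genes, Rab7b at -7.26 in KO and -7.80 in WT, Dnase1l3 at -7.53 and -7.16, and Slc11a1 at -6.01 and -8.76.

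For each tested member but Tlr9, the genes with the most similar profile were found as those with the smallest root-mean-square difference in log2 RPKM over the 10 libraries, each gene centred on its mean, among 8582 genes with a mean log2 RPKM of at least 1. Nearest to Tlr3 were Dnase1l3 (0.51), Fndc7 (0.53) and Xcr1 (0.59). Nearest to Tlr11 were Slc11a1 (0.57), Treml4 (0.64) and Snx22 (0.72), and nearest to Tlr13 were Klri1 (0.27), Batf3 (0.38) and Gatm (0.39). Xcr1 and Batf3 are cDC1 markers, the second being the transcription factor on which mouse cDC1 depend. Nearest to Unc93b1 was Zbtb46 (0.10), a transcription factor of conventional dendritic cells, followed by Skap2 (0.11) and Ifngr2 (0.11). Tlr12 was nearest to Dfna5 (0.28), Stx17 (0.29) and Erlin1 (0.29), and Tlr7 to Pros1 (0.63), Ighj3 (0.70) and Atp1b1 (0.72). These distances describe the libraries, which share the split between the cell types, and carry no test. A smaller distance is easier to reach for a gene that varies little.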

How the data were processed

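Libraries were made from 2 ng of PicoPure-isolated RNA with ERCC spike-ins, amplified by the SMARTSeq v2 method and read as paired ends on an Illumina sequencer, per the labels' protocols. Per the submitters' processing notes, the tools were STAR 2.3, featureCounts 1.5.0 and edgeR in R 3.3.3, with GRCm38 (mm10); for the annotation release and strand setting, not given in the sources used here, no assumption was made beyond the lengths below. The authors deposited log2 RPKM values, normalized to library size, for 52550 genes. Each value was solved for whole reads with exon lengths of GENCODE mouse release M21: all 490350 values of the 49035 matched identifiers were whole within 0.01. Reads of the other 3515 genes, among them Tlr13 and Unc93b1, came from a search over whole-number lengths.

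limma 3.58.1 in R 4.3.3 was fitted to the deposited log2 RPKM of 14787 genes, those above 0 in at least 2 libraries, with 4 group means, eBayes with trend, two-sided tests and Benjamini-Hochberg adjustment over all 14787 genes (threshold 0.05; 6 residual and 3.31 prior degrees of freedom). No pseudocount was added. The comparisons shared libraries, so they are not independent. The procedure was run on simulated counts with a dispersion of 0.1 in every group. That setting lacks the uneven spread of the WT pre-cDC2 libraries, so the run does not cover it. The text names all members, at most 4 genes with the smallest p per list and genes whose role was needed, and the 3 nearest genes by profile without predicted genes. The nearest genes of Tlr9 and 1 B cell marker are not reported here. Members, lists and marker genes were chosen with earlier results of these data known. Values of libraries with 0 reads were set to 0 in sums. Alternatives were other filters, 1 RPKM added, quantile, median or total-read scaling, voom, fits of only the compared groups, eBayes without trend, library weights, replicate blocks and leaving out each library. A fit with WT pre-cDC2 replicate 2 as the only pre-cDC2 library and the leaving out of pre-cDC2 libraries for pathway genes were chosen after seeing the data. Precision at low levels is limited by reads, which are counted without molecular identifiers.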

Additional observations from a re-analysis of the deposited data

How the results depend on the processing

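Tlr3, Tlr11 and Tlr13 stayed past the threshold with the same sign in both cell type comparisons under every alternative run. They passed the filter on low values through pre-cDC1, so they had to differ to some degree, and these calls are a description. The count of members called for pre-cDC2 minus pre-cDC1 in WT was 3 instead of 5 with no filter (701 of 52550 genes called). It was also 3 with only the compared groups (460 of 14787) and with genotype and replicate number together as a replicate block (217 of 14787). On leaving out each pre-cDC1 library it was 4 to 5, where 6.76% to 10.5% of all tested genes were called. In KO it was 4 instead of 7 with no filter (1394 of 52550 genes called) and 3 with that block (1094 of 14787). On leaving out each pre-cDC1 library it was 5 to 6, where 15.5% to 18.8% of all tested genes were called. For KO minus WT in pre-cDC2 it was 0 to 3 on leaving out each library, 2 without WT replicate 2 and 3 without WT replicate 3. For the interaction it was 0 to 2 on leaving out each library. For KO minus WT in pre-cDC1 it was 0 throughout. The numbers were not taken as pairs, since the labels do not say that they pair samples. Deviations of libraries with the same replicate number had correlations of -0.03 to 0.032. In a group of 2 libraries the deviations mirror each other, so these correlations cannot decide the matter. The replicate number alone as a block changed the WT call of Unc93b1 (-1.28, limma adjusted p = 0.0656) and the KO call of Tlr9 (-1.37, adjusted p = 0.0635). Signs turned without WT pre-cDC2 replicate 2. On leaving out each library, KO minus WT in pre-cDC2 ranged from -0.507 to 0.075 for Tlr7, -1.286 to 0.212 for Tlr9, -2.318 to 0.263 for Tlr13 and -1.152 to 0.347 for Unc93b1, and the interaction from -2.45 to 0.127 for Tlr13 and -1.16 to 0.344 for Unc93b1, with the positive ends without that library. Under the replicate-number block the Tlr7 value was 0.03. The WT cell type difference of Tlr9 ranged from -1.224 to 0.274, the upper end without WT pre-cDC2 replicate 3, and it was 0.274 also with replicate 2 as the only pre-cDC2 library. In pre-cDC1, KO minus WT ranged from -0.006 to 0.297 for Tlr13 and from -0.06 to 0.05 for Unc93b1, the lower ends without KO replicate 2, and was -0.016 for Unc93b1 without WT replicate 1 and -0.007 with library weights. None of these reversed values passed the threshold, and the cause was not tested. Without WT pre-cDC2 replicate 2 the interaction of Tlr12 was 1.66. Without replicate 3 those of Tlr13 and Unc93b1 were -2.45 and -1.16. Each of these fits holds a lone WT pre-cDC2 library. The Tlr12 cell type call was lost in 8 of 22 alternatives in KO and in 3 of 23 in WT, and the Tlr7 call was gained in 3 of 23 in WT. Over all genes, calls ranged over the alternatives from 0 to 114 (4 in the fit reported) for KO minus WT in pre-cDC1, 0 to 1048 (10) in pre-cDC2, 1094 to 4014 (3074) for the cell types in KO, 217 to 2722 (1697) in WT, and 0 to 495 (3) for the interaction. The upper ends in pre-cDC2 and the interaction came without WT pre-cDC2 replicate 3. Low read counts limit Tlr3, Tlr11 and Tlr13 in pre-cDC2, Tlr7 in pre-cDC1 and Tlr8 everywhere.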

Other observations

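Cell-surface TLRs and cytosolic sensors were described for the same cell type comparison. Of 5 cell-surface TLR genes, all tested, Tlr4, the receptor for lipopolysaccharide, was lower in pre-cDC2, with a log2 difference of -2.40 ± 0.48 in KO (SE; limma adjusted p = 0.00723) and -2.21 ± 0.48 in WT (adjusted p = 0.0179). It was the 1 gene of this list past the threshold in either genotype, and the list's median was -0.14 in KO and -0.55 in WT. Of 9 cytosolic nucleic acid sensors, all tested, 1 was higher and 3 were lower in KO and 1 was lower in WT, with a median of -0.20 in KO and 0.04 in WT. Mb21d1, which encodes the DNA sensor cGAS, was lower in both, at -1.31 ± 0.27 in KO (limma adjusted p = 0.00878) and -1.21 ± 0.27 in WT (adjusted p = 0.021). Ddx58, which encodes the RNA sensor RIG-I, was higher in KO pre-cDC2, at 4.76 (limma adjusted p = 0.0239). With 1 pre-cDC2 library left out, calls were lost for Tlr4 (limma adjusted p = 0.0645 in KO without replicate 2, 0.0808 in WT without replicate 3), Mb21d1 (0.068 in KO without replicate 1, 0.0602 in WT without replicate 2) and Ddx58 (0.111 to 0.146 in KO without either one). Of all tested genes, 20.8% were called in KO and 11.5% in WT. Neither list had a gene past the threshold between KO and WT in pre-cDC2 or pre-cDC1.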
